A study of Mus musculus with 6 samples.

Results

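The fragile X family and its CYFIP partners were followed in ribosome-associated RNA of mPFC D2 neurons. The family was taken as 5 genes, namely Fmr1, Fxr1, Fxr2, Cyfip1 and Cyfip2, picked by gene name. They accounted for 5 of the 47729 genes and 45 of the 115220 transcripts of the deposited table. Fmr1 lies on chromosome X of GRCm38 from 68678541 to 68717963, Fxr1 on chromosome 3 from 34019943 to 34070322, Fxr2 on chromosome 11 from 69632990 to 69653297 and Cyfip1 on chromosome 7 from 55841745 to 55932602, each on the plus strand. Cyfip2 lies on the minus strand of chromosome 11 from 46193850 to 46312859.

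FMRP, the product of Fmr1, is an RNA-binding protein that travels with neuronal mRNAs and holds back their translation, and its loss causes fragile X syndrome. FXR1 and FXR2 are its autosomal relatives, with similar RNA-binding domains, and FXR1 is a substrate of GSK3. CYFIP1 binds FMRP and the cap-binding protein eIF4E, and both CYFIP proteins are also subunits of the WAVE regulatory complex, through which Rac signals to actin in dendritic spines.

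Libraries were compared between 3 Ctrl and 3 Gsk3sKO in mPFC D2 samples from adult male C57BL/6 mice. All mice carried D2Cre, a bacterial artificial chromosome transgene that drives Cre in D2 cells, with LSL-Flag-Cas9 and RiboTag, so that Cas9 and tagged ribosomes were present in the controls too. Ctrl mice were injected with AAV GFP and Gsk3sKO mice with AAV Gsk3sgRNA/GFP, and mPFC was collected 3 weeks later. Whether a library came from 1 mouse or from a pool is not given in the sources used here, so the p-values speak only of the spread among libraries, and that spread may be technical.

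The Gsk3b gene total, the check of the labels, was 35.6, 53.8 and 56.4 FPKM in Ctrl (replicates 1 to 3, as in all series of values here) against 36.9, 37.0 and 33.6 FPKM in Gsk3sKO, so that the groups overlapped through Ctrl replicate 1 (log2 change -0.40 ± 0.19, SE, with an adjusted p of 0.773 by limma). FPKM, the fragments per kilobase of transcript, scaled to the mapped fragments of the library, counts edited and intact transcripts alike. That of Gsk3a lay between 39.8 and 50.1 FPKM in all 6 libraries. The spacing of low values put the depth at about 23.5 to 45.2 M reads per library. Drd2, the gene that defines the labelled neurons, was found at 1.58 FPKM in Ctrl replicate 1 and between 5.96 and 14.1 FPKM in the other libraries. Slc17a7 of excitatory neurons lay between 192 and 273 FPKM and Sst of interneurons between 652 and 942 FPKM. Of 5 oligodendrocyte markers, 3 were lower in Gsk3sKO at an unadjusted limma p under 0.05 (Mog, Mag and Cnp), where 5.2% of all gene totals were, with Mog listed at 0 in Gsk3sKO replicates 2 and 3, while the summed level of all 5 was 97.7 to 153 FPKM in Ctrl and 98.5 to 141 FPKM in Gsk3sKO. Among 5 excitatory markers 1 was called, Tbr1 as lower, and 0 of the tested markers of D2 neurons, inhibitory neurons, astrocytes, microglia and endothelial cells were called. The part of these cell types in the results was not tested. In such bulk libraries, fewer cells of a type and less RNA per cell cannot be told apart.

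All 5 genes were found in the RiboTag RNA, over a wide range of levels. Cyfip2 had by far the highest gene total, the sum of the FPKM of all its transcripts, with a mean of 236 FPKM over the 6 libraries, above 98.7% of the gene totals tested. Fxr2 followed at 36.8 FPKM, Fxr1 at 32.3 FPKM, Fmr1 at 25.0 FPKM and Cyfip1 at 10.8 FPKM. The Cyfip2 total was between 5.78 and 8.28 times that of Fxr2 and between 14.5 and 28.0 times that of Cyfip1 in the same library. Fxr2 was above Fxr1 in 5 of the 6 libraries, the exception being Gsk3sKO replicate 3, and their ranges overlapped. Fxr1 was above Fmr1 in each of the 6 libraries, although the ranges of the 2 genes over the libraries overlapped as well. Fmr1 was 1.54 to 3.56 times Cyfip1. Within the fragile X family, Fmr1 made up 26.9% ± 1.83 (SD, n = 3) of the summed FPKM in Ctrl against 26.2% ± 3.76 (SD, n = 3) in Gsk3sKO, and the ranges overlapped.

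**Figure D1:**
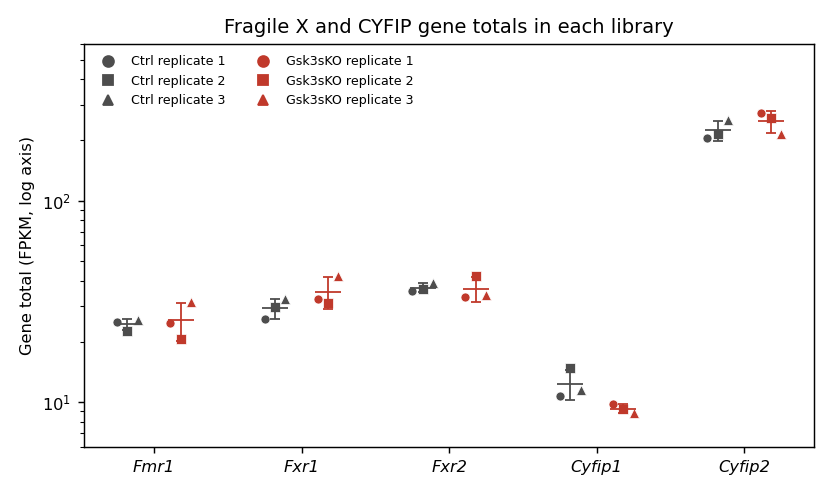
Gene totals of Fmr1, Fxr1, Fxr2, Cyfip1 and Cyfip2 in FPKM on a log axis, with a symbol for each library of Ctrl (grey) and Gsk3sKO (red) and bars for the mean and SD of 3 libraries. The Gsk3sKO libraries lie below all Ctrl libraries for Cyfip1, and the groups overlap for the other 4 genes.

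The totals of the 5 genes were compared first, to ask whether the amount of their RNA on ribosomes differed after the knockout. At an unadjusted limma p under 0.05, 0 of the 5 gene totals were called, against 6.56% of all gene totals tested, and 0 had an adjusted limma p under 0.05, against 0.0466% of all gene totals. Limma without moderation of the variances also called 0 of them. The Cyfip1 total came nearest. It was 10.7, 14.7 and 11.5 FPKM in Ctrl against 9.78, 9.21 and 8.83 FPKM in Gsk3sKO. Each Gsk3sKO library was lower than each Ctrl library (exact permutation test, 2-sided, p = 0.1, the smallest that 3 libraries against 3 allow), a pattern found for 8.3% of all gene totals. The log2 change, the difference of group means of log2(FPKM + 1), was -0.36 ± 0.18 (SE), with a 95% interval from -0.78 to 0.06, with an unadjusted limma p of 0.0809 and an adjusted p of 0.786.

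The Fxr1 total, of the family member that GSK3 phosphorylates, was 25.7, 29.6 and 32.5 FPKM in Ctrl against 32.5, 30.9 and 42.5 FPKM in Gsk3sKO. Its log2 change was 0.25 ± 0.17 (SE), with a 95% interval from -0.14 to 0.64 and an adjusted p of 0.824 by limma, and it was 0.12 without Gsk3sKO replicate 3. The highest value was that of Gsk3sKO replicate 3, and the other Gsk3sKO libraries lay within or at the edge of the Ctrl range. The Fmr1 total was 25.0, 22.6 and 25.6 FPKM in Ctrl against 24.8, 20.6 and 31.4 FPKM in Gsk3sKO. The log2 change was 0.05 ± 0.18 (SE), with a 95% interval from -0.36 to 0.46 and an adjusted p of 0.967 by limma, and it was -0.10 without Gsk3sKO replicate 3. The Gsk3sKO libraries lay on both sides of the Ctrl libraries. The Fxr2 total was 35.5, 36.6 and 39.0 FPKM in Ctrl against 33.1, 42.5 and 34.0 FPKM in Gsk3sKO, a log2 change of -0.03 ± 0.15 (SE), with a 95% interval from -0.36 to 0.31 and an adjusted p of 0.983 by limma, or 0.037 with each library rescaled to the median ratio. The Cyfip2 total was 205, 213 and 253 FPKM in Ctrl against 274, 257 and 215 FPKM in Gsk3sKO, a log2 change of 0.15 ± 0.15 (SE), with a 95% interval from -0.19 to 0.49 and an adjusted p of 0.881 by limma. All 5 intervals included 0.

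The transcripts of Fmr1 were examined next, since the table resolves 13 of them. Fmr1 pre-mRNA is known to be spliced in several ways. Exon 12 can be skipped, which shortens a loop of the second KH domain, an RNA-binding domain. Exon 15 can start at alternative acceptor sites, close to the RGG box, another RNA-binding stretch. In the GENCODE M21 annotation, Fmr1-201 (ENSMUST00000088546) has 17 exons and a coding length of 1842 bases with exon 12 and the long form of exon 15. Fmr1-205 (ENSMUST00000114656) lacks exon 12 and the first 6 bases of exon 10 and keeps the long exon 15. Fmr1-202 (ENSMUST00000114653) has exon 12 but lacks the first 75 bases of exon 15.

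Exon 12 spans chrX:68705861-68705923 of GRCm38 on the plus strand, and its 63 bases keep the reading frame. It is shown as the longest coding difference between Fmr1-201 and Fmr1-205, with exon 12 in capitals and 15 bases of each neighbouring exon in lower case, as read from the GENCODE M21 sequences of Fmr1-201 and Fmr1-205.
Fmr1-201 with exon 12: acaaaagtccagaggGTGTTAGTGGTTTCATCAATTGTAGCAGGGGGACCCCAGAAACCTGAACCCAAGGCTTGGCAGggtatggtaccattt
Fmr1-205 without exon 12: acaaaagtccagaggggtatggtaccattt

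The start of exon 10, chrX:68703663-68703668 on the plus strand, is the other coding difference between these transcripts, with its 6 bases in capitals.
Fmr1-201 with the start of exon 10: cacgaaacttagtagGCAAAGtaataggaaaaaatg
Fmr1-205 without it: cacgaaacttagtagtaataggaaaaaatg

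The remaining segment, chrX:68712231-68712305 on the plus strand, is the start of the long exon 15. It is shown as the segment whose use did not separate the groups, with its 75 bases in capitals.
Fmr1-201 with the long exon 15: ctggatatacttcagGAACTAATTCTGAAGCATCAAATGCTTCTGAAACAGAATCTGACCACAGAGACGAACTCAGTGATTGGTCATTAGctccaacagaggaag
Fmr1-202 with the short exon 15: ctggatatacttcagctccaacagaggaag

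**Figure D2:**
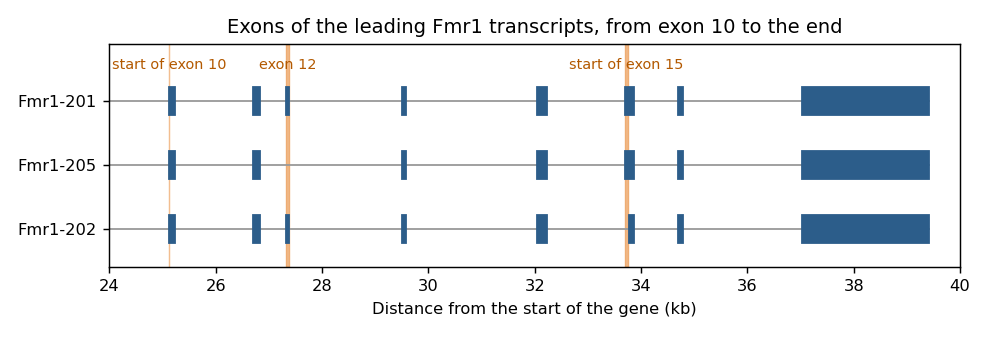
Exons (boxes) of Fmr1-201, Fmr1-205 and Fmr1-202 from exon 10 to the end of the gene, drawn to scale against the distance from the start of the gene in kb, with the segments that differ shaded. Fmr1-205 has no box at exon 12, and exon 15 of Fmr1-202 starts later than that of the other transcripts.

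By its listed FPKM, Fmr1-201 was nearly absent from Ctrl and present in each Gsk3sKO library. Its FPKM was 0.00181, 0.302 and 0.207 in Ctrl against 12.9, 4.15 and 11.4 in Gsk3sKO. The groups did not overlap, which was so in the higher direction for 4.28% of all tested transcripts. The log2 change was 3.05 ± 0.47 (SE), with a 95% interval from 1.9 to 4.19, with an unadjusted limma p of 0.000554 and an adjusted p of 0.212 over all 21584 tested transcripts. By leaving out 1 library at a time it lay between 2.78 and 3.50. With a mean of 0.17 FPKM in Ctrl, Fmr1-201 passed the filter of a mean of 1 FPKM over the 6 libraries through the Gsk3sKO libraries alone. At the approximate depth of each library, its FPKM corresponds to about 0, 43 and 22 reads in Ctrl and 2346, 527 and 1512 reads in Gsk3sKO. These numbers follow the FPKM and are not counts of reads that identify Fmr1-201, which shares 4257 of its 4409 bases with Fmr1-205.

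Fmr1-205 showed the opposite pattern. Its FPKM was 11.6, 9.08 and 13.7 in Ctrl, while it was listed at 0 in Gsk3sKO replicate 1 and at 4.54 and 3.31 in replicates 2 and 3. The Gsk3sKO libraries lay below all Ctrl libraries, as for 6.96% of all tested transcripts. The log2 change was -2.10 ± 0.67 (SE), with a 95% interval from -3.71 to -0.49, with an unadjusted limma p of 0.0186 and an adjusted p of 0.817. On leaving out Ctrl replicate 1 the log2 change was -2.08 with an unadjusted limma p of 0.0519, and on leaving out Ctrl replicate 3 it was -1.97 with 0.0582. On leaving out Gsk3sKO replicate 1, the library at 0, the change was -1.33 (unadjusted limma p of 0.0057). The unadjusted p was 0.0632 with a pseudocount of 0.1 in place of 1 (log2 change -3.29), and 0.0561 by limma without moderation of the variances. Fmr1-202, the third main transcript, was 10.9, 11.8 and 8.53 FPKM in Ctrl against 6.58, 8.37 and 13.0 FPKM in Gsk3sKO (log2 change -0.18 ± 0.29, SE, with an adjusted p of 0.937 by limma), with overlapping groups.

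The sum of Fmr1-201 and Fmr1-205 did not separate the groups. It was 11.6, 9.38 and 13.9 FPKM in Ctrl against 12.9, 8.69 and 14.7 FPKM in Gsk3sKO, or 11.6 ± 2.28 (SD, n = 3) and 12.1 ± 3.08 (SD, n = 3; exact permutation test, 2-sided, p = 0.8). Fmr1-201 made up 0.0157%, 3.22% and 1.49% of this sum in Ctrl and 100%, 47.7% and 77.5% in Gsk3sKO. The transcripts share 4257 bases, and Fmr1-201 has 152 further bases, of which 69 are coding (exon 12 and the start of exon 10) and 83 lie at the 5′ end. Only reads over these bases or across the skipped junctions can tell the transcripts apart, and the authors' assembler divided all others between them.

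Protein-coding Fmr1 transcripts were then grouped by the segments they hold, a grouping chosen after these values were seen. Transcripts with exon 12 (Fmr1-201, Fmr1-202 and Fmr1-204) summed to 10.9, 12.1 and 8.74 FPKM in Ctrl against 19.9, 12.5 and 24.4 FPKM in Gsk3sKO. The share of coding Fmr1 FPKM without exon 12 was 52.0%, 43.5% and 63.6% in Ctrl and 16.7%, 35.7% and 12.1% in Gsk3sKO, or 53.0% ± 10.1 (SD, n = 3) and 21.5% ± 12.5 (SD, n = 3). Each Gsk3sKO library was below each Ctrl library (exact permutation test, 2-sided, p = 0.1, the smallest possible), and the difference lay between -38.6 and -26.2 percentage points with 1 library left out. The share without the start of exon 10, which only Fmr1-205 lacks, was 50.7%, 42.3% and 57.2% in Ctrl and 0%, 23.3% and 11.9% in Gsk3sKO, a difference of -38.4 percentage points, and its groups did not overlap either (exact permutation test, 2-sided, p = 0.1). Both shares are built from the FPKM of Fmr1-201 and Fmr1-205 and are no separate evidence. Whether exon 12, the start of exon 10 or the 5′ end carries the difference was not tested, since FPKM hold no counts of reads across junctions. The share without the first 75 bases of exon 15 was 48.3% ± 7.56 (SD, n = 3) in Ctrl against 43.7% ± 5.82 (SD, n = 3) in Gsk3sKO, with overlapping groups (exact permutation test, 2-sided, p = 0.4). As shares of the gene total, Fmr1-201 held 0.718% ± 0.669 (SD, n = 3) in Ctrl against 36.1% ± 15.9 (SD, n = 3) in Gsk3sKO, and Fmr1-205 held 46.7% ± 6.73 (SD, n = 3) against 10.8% ± 11.0 (SD, n = 3). Both shares separated the groups, as was found for 9.85% of the shares of tested transcripts in all genes with more than 1 listed transcript. Since Fmr1-201 passed the filter through the Gsk3sKO libraries alone, the separation of its share is given only as a description. The other 10 Fmr1 transcripts had means below 1 FPKM and together held between 6.17% and 21.5% of the gene total.

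**Figure D3:**
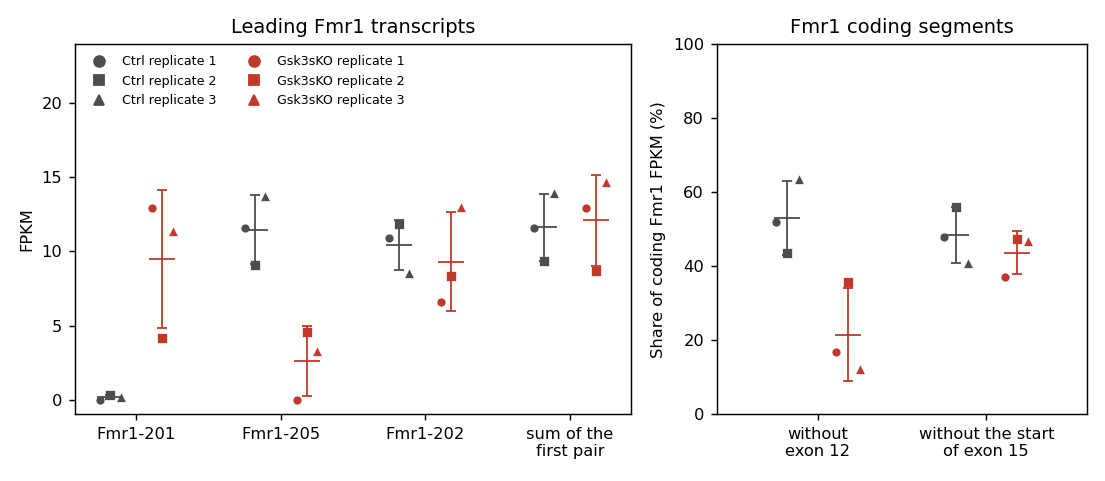
Left, FPKM of the 3 leading Fmr1 transcripts and of the sum of Fmr1-201 and Fmr1-205 in each library. Right, share of protein-coding Fmr1 FPKM in transcripts without exon 12 and without the start of exon 15, in percent. Symbols are libraries and bars the mean and SD of 3. Fmr1-201 and Fmr1-205 separate the groups in opposite directions, while their sum does not.

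Fxr1 was carried mainly by a pair of transcripts, and neither was called. Fxr1-201 (ENSMUST00000001620) holds exon 15, an in-frame exon of 81 bases known from striated muscle, together with 87 bases in the middle of exon 12 and the 92 bases of exon 16. Fxr1-208 (ENSMUST00000200392) lacks all 3 segments, and since 92 is no multiple of 3 its coding sequence of 1617 bases ends earlier than the 2031 bases of Fxr1-201. Exon 15 lies at chr3:34064974-34065054 of GRCm38 on the plus strand and is shown in capitals between 15 bases of exons 14 and 16, because the transcript that holds it ranked first.
Fxr1-201 with exon 15: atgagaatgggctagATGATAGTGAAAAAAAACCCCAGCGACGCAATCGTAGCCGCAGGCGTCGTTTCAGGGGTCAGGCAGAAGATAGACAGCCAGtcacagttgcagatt

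Fxr1-201 was 16.2, 18.2 and 15.6 FPKM in Ctrl against 21.6, 14.2 and 27.8 FPKM in Gsk3sKO. Its log2 change was 0.28 ± 0.26 (SE), with a 95% interval from -0.35 to 0.92 and an adjusted p of 0.89 by limma, or 0.53 without Gsk3sKO replicate 2 with an unadjusted limma p of 0.0467, and it was 0.07 without Gsk3sKO replicate 3. Fxr1-208 was 7.13, 7.02 and 14.3 FPKM in Ctrl against 9.22, 14.8 and 12.8 FPKM in Gsk3sKO (log2 change 0.39 ± 0.33, SE, with an adjusted p of 0.89 by limma). In both groups the libraries were widely spread. Fxr1-201, the only coding transcript listed with exon 15, held 59.5% ± 7.52 (SD, n = 3) of the FPKM of coding transcripts across this region in Ctrl. In Gsk3sKO it held 59.8% ± 11.9 (SD, n = 3; exact permutation test, 2-sided, p = 1). The use of exon 15 itself was not measured, since FPKM hold no counts of reads across its junctions. Ctrl replicate 3 and Gsk3sKO replicate 2 had the lowest shares, 50.9% and 46.0%. Fxr1-204, which holds exon 16 but not exon 15, was listed between 0 and 2.93 FPKM (log2 change -0.63 ± 0.57, SE, with an adjusted p of 0.89 by limma). Summed over protein-coding transcripts alone, a sum that was not planned, Fxr1 was 25.7, 29.0 and 30.7 FPKM in Ctrl against 32.4, 30.9 and 41.9 FPKM in Gsk3sKO. The groups no longer overlapped, by a gap that is small beside the spread within each group (exact permutation test, 2-sided, p = 0.1). Such a separation in the higher direction was found for 3.71% of all gene totals, which are summed over all transcripts. The share among sums of coding transcripts alone was not computed. The same sums of Fmr1, Fxr2, Cyfip1 and Cyfip2 overlapped between the groups. The other 6 Fxr1 transcripts held at most 5.52% of the gene total.

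Fxr2 rested on a single coding transcript, Fxr2-201 (ENSMUST00000018909), which held 95.5% to 99.6% of the gene total in each library. It was 35.3, 35.1 and 38.9 FPKM in Ctrl against 32.6, 40.6 and 32.6 FPKM in Gsk3sKO (log2 change -0.05 ± 0.15, SE, with a 95% interval from -0.42 to 0.31 and an adjusted p of 0.972 by limma). The other 5 Fxr2 transcripts are annotated as noncoding and stayed below the filter, with 1 at 0 in all libraries.

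The coding and noncoding transcripts of Cyfip1 divided its total differently from library to library. Cyfip1-207 (ENSMUST00000173497), annotated as a retained intron, had values of 0, 11.1 and 2.85 FPKM in the Ctrl libraries and was listed at 0 in each Gsk3sKO library. It passed the filter through 2 Ctrl libraries alone, and it was called only on leaving out Ctrl replicate 1 (unadjusted limma p of 0.0064). In Ctrl replicate 2 it made up 75.8% of the gene total. Summed over protein-coding transcripts alone, a sum formed after these values were seen, Cyfip1 was 10.4, 2.16 and 6.57 FPKM in Ctrl against 9.41, 8.60 and 7.71 FPKM in Gsk3sKO, so the mean was 6.38 ± 4.14 (SD, n = 3) in Ctrl against 8.57 ± 0.854 (SD, n = 3) in Gsk3sKO with overlapping groups (exact permutation test, 2-sided, p = 0.5). The mean difference, of opposite sign to that of the gene total, rests on Ctrl replicate 2, since it was 2.19 FPKM with all libraries and 0.0761 FPKM without that library. Ctrl replicate 1 lay above each Gsk3sKO library in the coding sum as in the total. Cyfip1 made up 4.96%, 6.45% and 4.37% of the summed Cyfip1 and Cyfip2 totals in Ctrl against 3.45%, 3.46% and 3.95% in Gsk3sKO, which was lower in each Gsk3sKO library (exact permutation test, 2-sided, p = 0.1) and rests on the same Cyfip1 total.

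Between the 2 main coding transcripts of Cyfip1, the annotation differs in exon 16 and in the lengths of the first and last exons. At exon 16, Cyfip1-201 (ENSMUST00000032629) uses 154 bases and Cyfip1-202 (ENSMUST00000085255) another 148 bases. Cyfip1-201 was 0.755, 0.323 and 1.58 FPKM in Ctrl against 1.73, 1.76 and 7.56 FPKM in Gsk3sKO. The Gsk3sKO libraries lay above all Ctrl libraries, but by little outside Gsk3sKO replicate 3 (log2 change 1.14 ± 0.59, SE, with a 95% interval from -0.28 to 2.57 and an adjusted p of 0.85 by limma). Without that library the log2 change was 0.60. With a mean of 0.885 FPKM in Ctrl, Cyfip1-201 passed the filter of a mean of 1 FPKM only through the Gsk3sKO libraries. Cyfip1-202 was 9.67, 1.83 and 5.0 FPKM in Ctrl against 6.53, 6.84 and 0.144 FPKM in Gsk3sKO (log2 change -0.47 ± 0.89, SE, with an adjusted p of 0.95 by limma), and it was lowest in Gsk3sKO replicate 3, where Cyfip1-201 was highest. At these low levels the share of Cyfip1-202 varied from library to library more than between the groups, between 1.64% and 90.3% of the gene total. The share of Cyfip1-201 was 7.05%, 2.20% and 13.6% in Ctrl against 17.7%, 19.1% and 85.7% in Gsk3sKO. Its groups did not overlap, as for 9.85% of all shares. Of the 12 Cyfip1 transcripts, 3 were at 0 in every library.

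Cyfip2 came mainly from a single transcript in each library. Cyfip2-202 (ENSMUST00000093166) was 145, 195 and 242 FPKM in Ctrl against 258, 253 and 206 FPKM in Gsk3sKO (log2 change 0.32 ± 0.21, SE, with a 95% interval from -0.19 to 0.83 and an adjusted p of 0.881 by limma). The log2 change was 0.13 without Ctrl replicate 1, and 0.49 with an unadjusted limma p of 0.0466 without Ctrl replicate 3. It held 70.9% of the gene total in Ctrl replicate 1 and 91.4% to 98.5% in the other libraries. Cyfip2-205 (ENSMUST00000165599) and Cyfip2-201 (ENSMUST00000093165) have the same coding sequence of 3759 bases and differ in the first exon. Cyfip2-205 was 53.5, 15.8 and 8.77 FPKM in Ctrl against 8.77, 2.52 and 6.37 FPKM in Gsk3sKO, with the lowest Ctrl and the highest Gsk3sKO library at almost the same value. Its log2 change was -1.71 ± 0.70 (SE), with a 95% interval from -3.41 to -0.02, with an unadjusted limma p of 0.0481 and an adjusted p of 0.842. The value rests on Ctrl replicate 1, which was also the library with the lowest Drd2. Without it the log2 change was -1.02, with an unadjusted limma p of 0.114. The call was also lost without Ctrl replicate 2, Gsk3sKO replicate 2 or Gsk3sKO replicate 3. The part of Drd2 in this difference was not tested. Cyfip2-201 was at most 4.36 FPKM and Cyfip2-204 at most 5.54 FPKM, and neither was called.

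**Figure D4:**
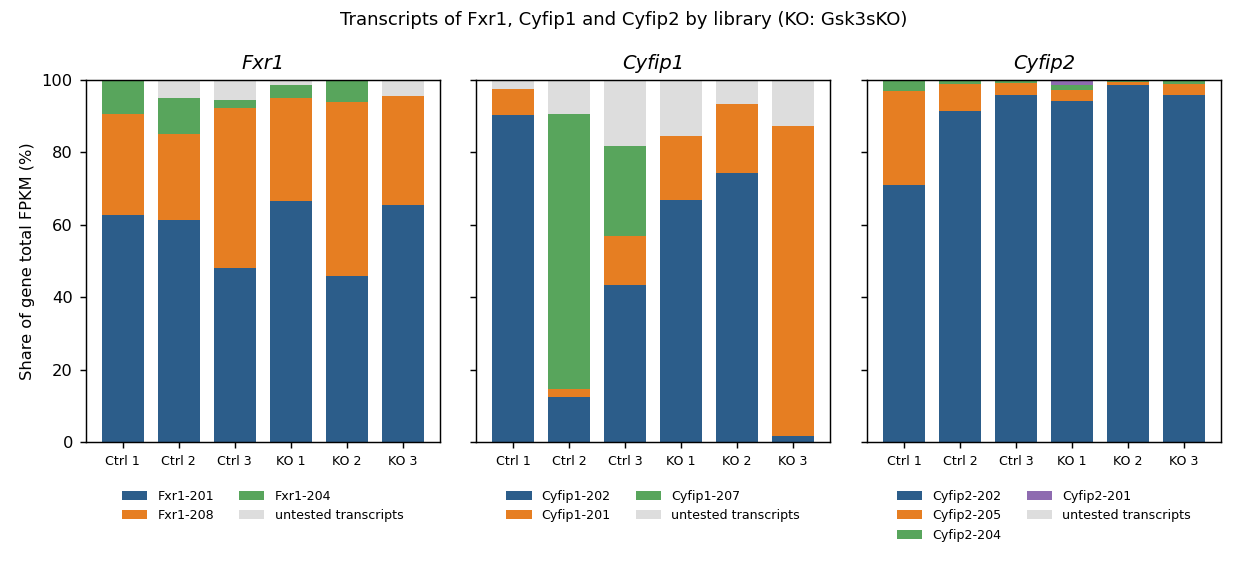
Share of the gene total FPKM, in percent, held by each tested transcript of Fxr1, Cyfip1 and Cyfip2 in each library, with untested transcripts in grey. Cyfip1-207 fills 75.8% of the bar of Ctrl replicate 2 and is missing from the Gsk3sKO bars, and Cyfip2-202 fills most of each Cyfip2 bar.

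Of the 45 transcripts of the 5 genes, 14 had a mean of at least 1 FPKM and were tested. At an unadjusted limma p under 0.05, 3 were called, Fmr1-201 as higher and Fmr1-205 and Cyfip2-205 as lower, where 5.56% of all tested transcripts were called (1.81% higher and 3.75% lower). At an adjusted limma p under 0.05, 0 of the 14 were called, and 0 of all tested transcripts. Limma without moderation of the variances called 1 at an unadjusted p, Fmr1-201. Without Ctrl replicate 1, 2 were called, Fmr1-201 as higher and Cyfip1-207 as lower. Both passed the filter through 1 group alone, and Ctrl replicate 1 was the Ctrl library listed at 0 for Cyfip1-207. The groups did not overlap for 3 of the 14 (Fmr1-201, Fmr1-205 and Cyfip1-201), against 11.2% of all tested transcripts, and for 4 of their 14 shares of the gene total, which adds Cyfip2-205, against 9.85% of all shares. Fmr1-201, Cyfip1-201 and Cyfip2-201 had Ctrl means of 0.17, 0.885 and 0.472 FPKM, so they entered the test only through their Gsk3sKO level. Cyfip1-207 entered only through its Ctrl level. The 3 calls also come from 2 genes with few transcripts each. For these reasons the counts of called and of non-overlapping transcripts and shares are given as a description.

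**Figure D5:**
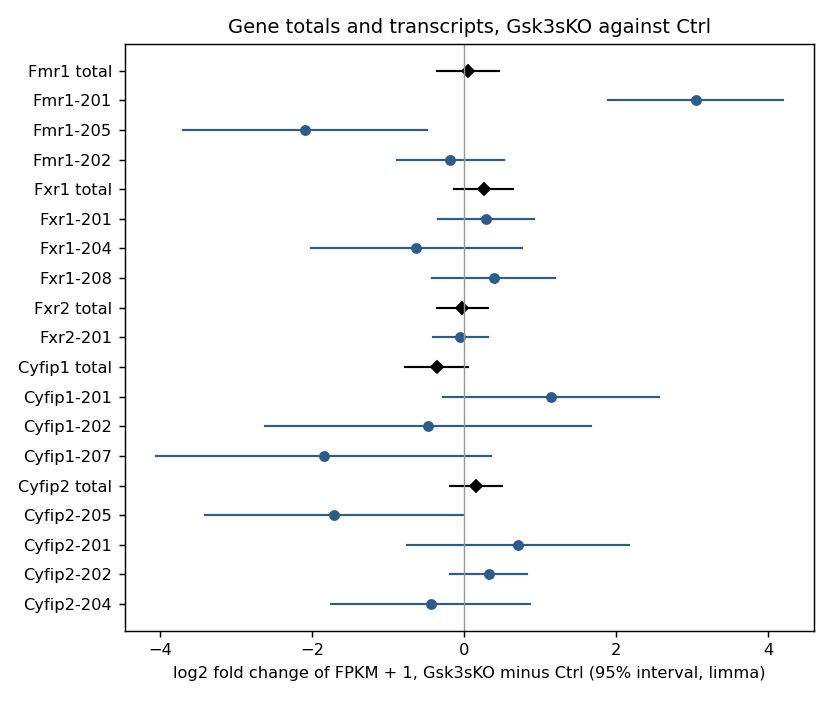
Change in log2(FPKM + 1) in Gsk3sKO against Ctrl with its 95% interval from limma, for the 5 gene totals (black diamonds) and the 14 tested transcripts (blue points). The intervals of all 5 gene totals include 0, and those of Fmr1-201, Fmr1-205 and Cyfip2-205 do not.

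The partners of CYFIP in the WAVE regulatory complex were examined with the Rac GTPases and the Arp2/3 complex, which the WAVE complex activates. Of 22 such genes, 20 were tested as gene totals, and 0 were higher and 1 lower at an unadjusted limma p under 0.05, against 1.36% and 5.2% of all gene totals. The list had a median log2 change of 0.05, where all tested gene totals had one of -0.06. Arpc3, a subunit of Arp2/3, was 118, 117 and 116 FPKM in Ctrl against 102, 90.5 and 93.5 FPKM in Gsk3sKO (log2 change -0.29 ± 0.12, SE, with an adjusted p of 0.747 by limma). The count of 1 fell to 0 without any single Ctrl replicate, without Gsk3sKO replicate 3 and with the replicate number as a block. The largest differences among the other genes were those of Arpc1b, at 0.584 to 1.99 FPKM in Ctrl and 0.597 to 2.87 FPKM in Gsk3sKO, and of Rac1. Rac1, the GTPase that activates the WAVE complex, was 35.8, 38.7 and 39.2 FPKM in Ctrl against 69.0, 41.7 and 44.9 FPKM in Gsk3sKO, with each Gsk3sKO library above each Ctrl library, as for 3.71% of all gene totals (log2 change 0.41 ± 0.20, SE, with an adjusted p of 0.779 by limma). Gsk3sKO replicate 1 stood highest. Of the 20 tested genes of the list, 4 were apart as higher, Rac1 among them, against 3.71% of all gene totals. Another 2 were apart as lower, Arpc3 among them, against 8.3% of all gene totals. Nckap1l and Abi3, which belong to blood cells and microglia, were below 1 FPKM and not tested.

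A second list held proteins that share ribonucleoprotein particles with FMRP or take part in the block of translation, such as Caprin1, G3bp1, Eif4e and the eIF4E-binding proteins. Of 35 genes, 33 were tested, with 0 higher and 1 lower at an unadjusted limma p under 0.05, against 1.36% and 5.2% of all gene totals, and a median log2 change of 0.05 against -0.06. The count of 1 fell to 0 without Ctrl replicate 2 and without Gsk3sKO replicate 3, and was 2 or 3 without Ctrl replicate 3, Gsk3sKO replicate 1 or Gsk3sKO replicate 2. Eif4ebp2, the main eIF4E-binding repressor of the brain, was 4.79, 5.63 and 3.68 FPKM in Ctrl against 3.10, 2.39 and 1.37 FPKM in Gsk3sKO (log2 change -0.82 ± 0.29, SE, with an adjusted p of 0.692 by limma). Its groups did not overlap, as for 8.3% of all gene totals in the lower direction. Of the 33 tested genes of the list, 2 were apart as lower, Eif4ebp2 among them, against 8.3% of all gene totals. Another 2 were apart as higher, against 3.71% of all gene totals. Tdrd3, which binds FMRP with the topoisomerase Top3b, was 9.64, 9.33 and 8.39 FPKM in Ctrl against 10.1, 4.55 and 3.82 FPKM in Gsk3sKO, low in Gsk3sKO replicates 2 and 3 (log2 change -0.60 ± 0.32, SE, with an adjusted p of 0.792 by limma). Caprin2 and Mov10 were below the filter.

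The third list held 45 mRNAs known as targets of FMRP, among them Map1b, Camk2a, Dlg4 and the Shank genes, and 43 were tested. At an unadjusted limma p under 0.05, 0 were called as higher and 0 as lower, against 1.36% and 5.2% of all gene totals. Limma without moderation of the variances called 1. In the main fit, 0 had an adjusted limma p under 0.05, against 0.0466% of all gene totals. Of the 43 tested genes of the list, 4 were apart as higher, Map1b among them, against 3.71% of all gene totals. As lower, 0 were apart, against 8.3% of all gene totals. The median log2 change was 0.03, against -0.06 over all gene totals, with 26 positive and 17 negative values. The largest were those of Shank3, a postsynaptic scaffold, which was 15.1, 15.7 and 19.7 FPKM in Ctrl against 15.7, 19.3 and 5.38 FPKM in Gsk3sKO (log2 change -0.45 ± 0.40, SE, with an adjusted p of 0.867 by limma), and of Apc, a microtubule-binding tumor suppressor, which was 87.7, 85.8 and 80.2 FPKM in Ctrl against 78.5, 112 and 159 FPKM in Gsk3sKO (log2 change 0.40 ± 0.23, SE, with an adjusted p of 0.792 by limma). Gsk3sKO replicate 3 was lowest for Shank3, whose other Gsk3sKO libraries lay within the Ctrl range, and highest for Apc. For Apc, Gsk3sKO replicate 2 also lay above the Ctrl libraries, and replicate 1 lay below them. Mmp9 and Dgkk were not tested. Among single transcripts, 8 of 161 tested in this list were called (4.97%), 5 of 47 in the list of the WAVE complex (10.6%) and 4 of 92 in the list of partners (4.35%), against 5.56% of all tested transcripts.

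The gene totals that ran most alike to each of the 5 genes over the 6 libraries were named among 8468 gene totals with a mean of at least 5 FPKM, by Pearson's r of log2(FPKM + 1), as a description of 6 points that share depth and library. They were Nsa2 (r = 0.994) and S100a13 (r = 0.990) for Fmr1, Cyp51 (r = 0.995) and Enox1 (r = 0.992) for Fxr1, Rrp7a (r = 0.976) and Ccdc39 (r = 0.975) for Fxr2, Mrpl39 (r = 0.984) and March5 (r = 0.983) for Cyfip1, and Tuba1a (r = 0.988) and Enc1 (r = 0.984) for Cyfip2. Among the 5 genes themselves r was highest between Fmr1 and Fxr1 (r = 0.690) and lowest between Fmr1 and Fxr2 (r = -0.656).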

How the data were processed

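Ribosome-associated RNA was isolated from mPFC by RiboTag immunoprecipitation and sequenced with a total RNA kit that keeps the strand. The authors deposited FPKM for each transcript and library. Per the labels, processing used HISAT2 2.1.0, SAMtools 1.9 and StringTie 1.3.4d on GRCm38. Settings of these tools: not given in the sources used here. The division of reads between overlapping transcripts is an estimate, which may move FPKM from 1 transcript of a gene to another. The table also holds the authors' fold, p-value and q-value for each transcript, which were not used. All 6 libraries were used.

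Transcript structures and sequences were taken from GENCODE M21 (GRCm38), in which 114237 of the 115220 transcripts were found. FPKM were summed by gene ID to gene totals. Groups were compared with limma 3.58.1 in R 4.3.3 (lmFit, eBayes with a trend) on log2(FPKM + 1), which understates changes of low values, for all features with a mean of at least 1 FPKM, with Benjamini-Hochberg adjustment over all of them. A feature was called at an unadjusted p under 0.05. Single values and shares were compared by 2-sided exact permutation tests, in which 3 libraries against 3 cannot go below p = 0.1. The model was tested on simulated data. The depth of each library was derived from the steps between low FPKM of transcripts over 800 bases in genes with 1 listed transcript, where 16.2% to 29.9% of values lay within 0.02 reads of a whole number, so it is approximate.

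The 5 genes, the 3 lists of partners and targets and the marker lists were chosen with earlier results of these data known. Named were all 5 genes, their transcripts with a mean of at least 1 FPKM, the called genes and the 2 largest changes of each list, and the 2 most similar gene totals for each gene. Python 3.11.15, pandas 2.3.3 and matplotlib 3.10.9 were used for tables and figures. No protein sequence was used here.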

Additional observations from a re-analysis of the deposited data

How the results depend on the processing

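Fmr1-201 was not tested at a mean of at least 5 FPKM. Since it passed the filter through Gsk3sKO alone, its p-values under the other settings do not bear on its stability. Calls lost under other settings were those of Fmr1-205 (above) and of Cyfip2-205, with unadjusted limma p between 0.051 and 0.115 without a filter, at a mean of at least 5 FPKM, after rescaling to the median ratio and without moderation of the variances. The Cyfip1 total reached an unadjusted limma p of 0.049 without a filter (log2 fold change -0.36). After rescaling, the log2 fold changes of the Fxr2 total and of Fxr2-201 turned to 0.037 and 0.011.

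With 1 library left out, the log2 fold change was between -0.10 and 0.19 for the Fmr1 total, between -0.14 and 0.038 for the Fxr2 total, between -0.97 and 0.44 for Cyfip1-202 and between -0.43 and 0.015 for Fmr1-202. The difference in shares lay between -2.83 and 8.51 percentage points for Fxr1-201, between -2.56 and 9.76 for Fxr1-208 and between -19.2 and 21.9 for Cyfip1-202. The sum of Fmr1-201 and Fmr1-205 differed by -0.83 to 2.17 FPKM and the coding sum of Cyfip1 by 0.0761 to 4.21 FPKM.

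The count of called transcripts of the 5 genes was 1 at a mean of at least 5 FPKM and 1 without moderation. Over all transcripts 1200 were called, 1917 without a filter and 590 at a mean of at least 5 FPKM, and between 878 and 1726 with 1 library left out. For gene totals 844 were called, and 573 to 1178 with 1 library left out. In the list of the WAVE complex the count of 1 was 2 without moderation, 0 with a replicate block and 0 to 1 with 1 library left out. In the list of FMRP partners it was 0 at a mean of at least 5 FPKM, 2 without moderation and 0 to 3 with 1 library left out. In the list of targets the count of 0 was 1 without moderation and 0 to 1 with 1 library left out (1 without Ctrl replicate 1 or Gsk3sKO replicate 1). The cause of these differences was not tested.

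Replicate numbers are shared between the groups, but deviations of same-numbered libraries from their group means had Pearson correlations of -0.03, -0.01 and -0.08 over gene totals, so the numbers were not taken as pairs. With the replicate number as a block, the unadjusted limma p was 0.124 for the Cyfip1 total. The block changed no call among the 5 gene totals and 14 tested transcripts, which for Fmr1-201 does not bear on its stability, as stated above.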
